A study of Mus musculus with 24 samples.

Results

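Reactive astrocytes were read out through 8 genes, Gfap, Vim, Serpina3n, Cd44, Lcn2, Aspg, Osmr and Cp, taken by symbol from a count table of 24421 genes. All 8 were in the table, and all 8 passed the filter on low counts together with 16316 genes in all. Each of 24 mice, 7.5 months old, gave 1 library of cortical RNA. Every mouse carried 5xFAD, a set of human mutant amyloid precursor protein and presenilin transgenes driven by a neuronal Thy1 promoter, so amyloid plaques form in all groups and no mouse free of the transgenes was analysed here. Beside 5xFAD, the 4 groups were labelled WT, Trem2 Knockout (Trem2KO), PLCG2 Knockout (Plcg2KO) and PLCG2 Heterozygous Knockout (Plcg2HET), with 6 mice each. There were 3 males and 3 females in each group except Plcg2KO, which had 4 males and 2 females. Mice are named by genotype and label code, M for male and F for female. The labels do not say how the knockout alleles were made.

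Astrocytes are the glial cells that supply neurons, take up glutamate and potassium, and cover blood vessels. Injury, inflammation or amyloid turns them reactive: they enlarge, build more intermediate filament and secrete acute-phase and inflammatory proteins, in part through cytokines of the oncostatin and interleukin 6 family that signal through gp130 and the transcription factor STAT3. Trem2 and Plcg2 act in microglia, the immune cells of the brain, as a lipid-sensing receptor and as a phospholipase downstream of it. The comparison asks how loss of either gene in amyloid-bearing cortex goes with the astrocyte response.

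By role, the 8 genes fall into filament proteins, receptors, secreted proteins and an enzyme. Gfap (chr11:102887336-102897200, minus strand, mm10) and Vim (chr2:13574311-13582826, plus strand) encode the intermediate filament proteins GFAP and vimentin. Osmr (chr15:6813577-6874313, minus strand) encodes the receptor for oncostatin M, and Cd44 (chr2:102811142-102901665, minus strand) the cell-surface receptor for hyaluronan. Serpina3n (chr12:104406708-104414329, plus strand) encodes a secreted serine protease inhibitor of the acute-phase response. Lcn2 (chr2:32384637-32387739, minus strand) encodes lipocalin-2, a secreted protein that binds iron-carrying siderophores. Cp (chr3:19957054-20009750, plus strand) encodes ceruloplasmin, a copper-containing ferroxidase. Aspg (chr12:112106683-112127573, plus strand) encodes an asparaginase. Cp overlaps Hps3, and Aspg overlaps Mir3073a and Mir3073b, so their counts could hold or lose reads of those genes. Serpina3n has close copies, but 9 of the 10 Serpina3 paralogs in the table did not pass the count filter, and the tenth, Serpina3g, reached at most 27 counts in a library, where Serpina3n had at least 771.

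Promoter windows are shown for 4 of the 8 genes: Gfap and Serpina3n, whose levels moved most closely together between mice, Osmr, the oncostatin M receptor, and Lcn2, which went the opposite way in Plcg2KO. Each window runs 5′ to 3′ on the gene's own strand from 250 bases before to 50 bases after the RefSeq start site (GRCm38.p6), and capitals mark a match to TTCNNNGAA, the core letters of a STAT-type site, or to TGANTCA, the core of an AP-1-type site. The windows lie at chr11:102897151-102897450 for Gfap, chr12:104406458-104406757 for Serpina3n, chr15:6874264-6874563 for Osmr and chr2:32387690-32387989 for Lcn2.
Gfap: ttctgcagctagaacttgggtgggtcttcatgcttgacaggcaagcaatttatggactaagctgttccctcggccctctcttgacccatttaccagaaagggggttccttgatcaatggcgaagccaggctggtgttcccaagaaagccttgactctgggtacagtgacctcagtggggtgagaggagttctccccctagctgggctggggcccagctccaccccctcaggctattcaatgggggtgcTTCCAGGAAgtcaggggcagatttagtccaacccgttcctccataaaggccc
Serpina3n: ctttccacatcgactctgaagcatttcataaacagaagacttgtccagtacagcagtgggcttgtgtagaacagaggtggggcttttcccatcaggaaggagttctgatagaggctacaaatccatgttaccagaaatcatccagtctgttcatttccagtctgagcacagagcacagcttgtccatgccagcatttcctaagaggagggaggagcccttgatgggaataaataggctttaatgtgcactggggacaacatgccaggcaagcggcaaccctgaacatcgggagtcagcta
Osmr: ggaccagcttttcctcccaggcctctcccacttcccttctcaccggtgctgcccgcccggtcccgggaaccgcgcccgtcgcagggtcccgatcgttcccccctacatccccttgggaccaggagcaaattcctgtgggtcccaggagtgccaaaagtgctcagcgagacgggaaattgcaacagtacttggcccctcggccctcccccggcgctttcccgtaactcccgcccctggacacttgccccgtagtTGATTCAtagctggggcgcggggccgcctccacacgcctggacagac
Lcn2: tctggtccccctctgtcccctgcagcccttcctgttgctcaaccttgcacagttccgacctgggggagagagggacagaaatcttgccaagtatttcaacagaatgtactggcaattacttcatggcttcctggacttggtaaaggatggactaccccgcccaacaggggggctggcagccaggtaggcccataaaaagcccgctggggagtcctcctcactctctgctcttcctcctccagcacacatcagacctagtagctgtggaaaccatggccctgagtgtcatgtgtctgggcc
Both motifs read the same on either strand, and neither overlapped the other in these windows. The STAT-type letters occurred in the Gfap window alone among the 9 windows of the 8 genes (Cp has 2), beginning 2 bases before the start site. The AP-1-type letters occurred in the Osmr window, beginning 3 bases after the start site, and in the first Cp window, 177 bases before it. Of all 32851 RefSeq windows of this length, 8.3% held the STAT-type letters and 7.81% the AP-1-type letters, so matches of this kind are common and a match is a description of letters only.

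The libraries held 36272966 to 82990818 counts. The labels were checked on the deleted genes: Plcg2 averaged 0.984 CPM in Plcg2KO and 11.8 in WT, and Trem2 averaged 6.01 CPM in Trem2KO and 82.5 in WT. In the libraries labelled heterozygous, Plcg2 averaged 12.0 CPM, and no reduction against WT was detected (Plcg2 log2 fold change 0.02, edgeR's quasi-likelihood test, adjusted p = 0.951). Genes that mark astrocytes were abundant in every library, with 15 markers such as Aqp4 and Slc1a2 summing to between 8528 and 11249.9 CPM. Rn45s, a ribosomal RNA precursor, took over 5% of counts in 3 libraries (Plcg2HET F3, Plcg2HET F1 and WT F1). Library deviations also followed GC content, and the fold changes of all genes correlated with GC content by a Spearman coefficient between -0.644 (Plcg2KO against Trem2KO) and 0.353 (Trem2KO against WT).

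Per transcript length, Gfap was by far the most abundant of the 8 genes. Its mean over the 24 libraries was 1105 TPM (a deposited unit scaled by transcript length and library size), rank 136 of the table. Serpina3n followed with 55.1 TPM and Vim with 52.0, then Cp with 6.62, Osmr with 3.91, Cd44 with 3.54 and Aspg with 2.86. Lcn2 was lowest with 1.04 TPM and had 0 to 142 counts per library. All levels below are CPM, each gene's share of its library's counts scaled between libraries by TMM, and compare a gene with itself only.

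**Figure D1:**
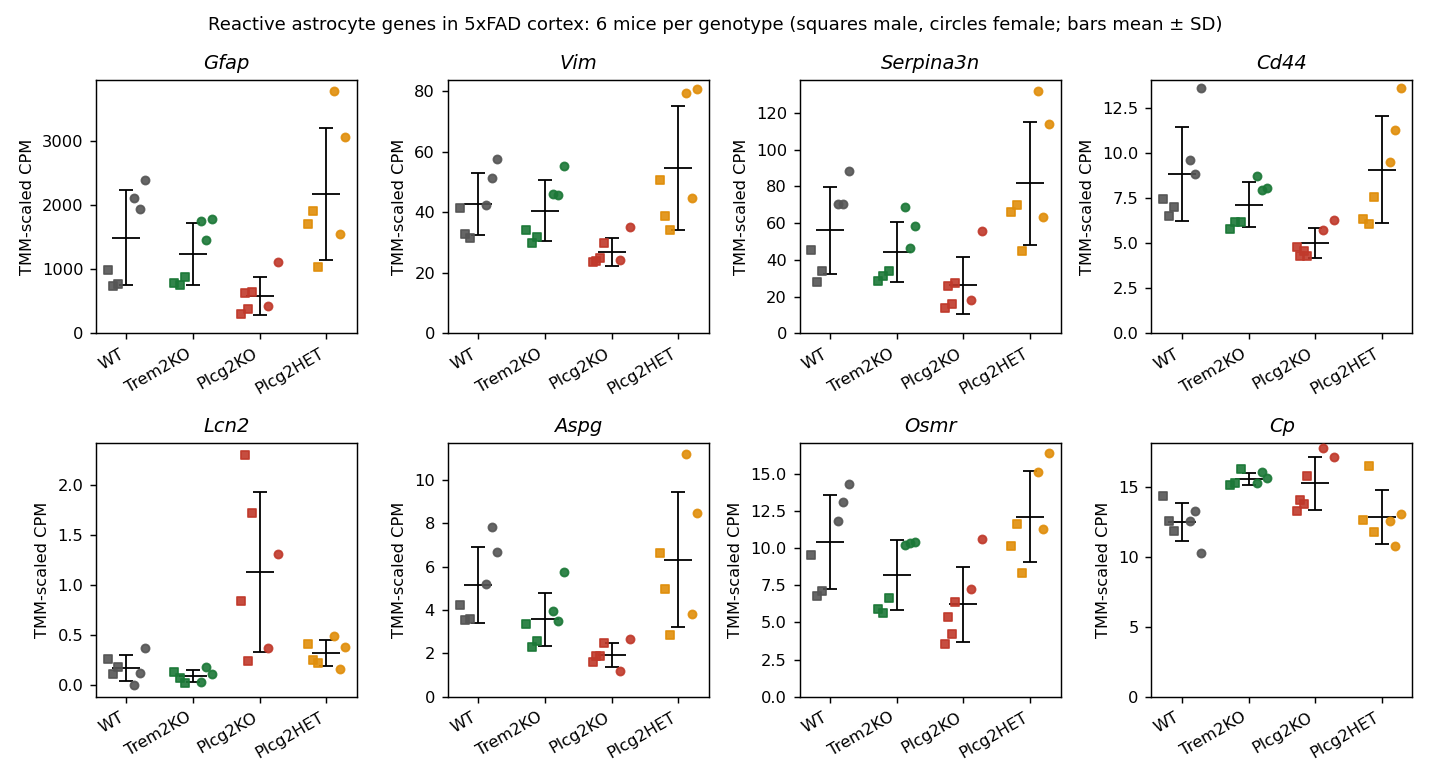
Level of each gene in each of the 24 libraries (vertical axis, TMM-scaled CPM from 0; horizontal axis, genotype; squares males, circles females; bars mean ± SD of 6 mice). In 6 panels Plcg2KO sits lowest, from Gfap with a mean of 581 CPM to Aspg with 1.95; Lcn2 shows the opposite, and Cp varies little.

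The 2 filament genes were lowest in Plcg2KO. Gfap ran from 733 to 2396 CPM in WT (median 1464), from 756 to 1783 in Trem2KO (median 1165), from 301 to 1113 in Plcg2KO (median 527) and from 1034 to 3780 in Plcg2HET (median 1812). Its order was therefore Plcg2HET, WT, Trem2KO, Plcg2KO, with means of 2174 ± 1032, 1490.1 ± 741, 1236 ± 485 and 581 ± 294 (SD, n = 6 each). Between WT and Trem2KO, neighbours in this order, Cp alone passed an adjusted p of 0.05 in the test over all 24 libraries given below. In Plcg2KO, 5 of 6 mice lay below every WT mouse, and F2 alone reached into the WT range. Vim, which assembles with GFAP, followed the same order over a narrower range. It ran from 31.5 to 57.6 CPM in WT (median 42.0), 29.9 to 55.3 in Trem2KO (median 40.1), 23.6 to 35.0 in Plcg2KO (median 24.6) and 34.0 to 80.8 in Plcg2HET (median 47.7). Here too 5 of 6 Plcg2KO mice lay below every WT mouse. In the other filament genes of a list of 11, among them those for nestin, synemin, neurofilament subunits and lamins, 1 was called lower and 0 higher in Plcg2KO against WT. That was Nes (nestin, log2 fold change -0.51 ± 0.17 SE, adjusted p = 0.0493, edgeR).

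The receptor genes were also lowest in Plcg2KO and highest in Plcg2HET by their means. Osmr ran from 6.75 to 14.3 CPM in WT (median 10.7), 5.63 to 10.4 in Trem2KO (median 8.44), 3.53 to 10.6 in Plcg2KO (median 5.87) and 8.35 to 16.4 in Plcg2HET (median 11.4). Cd44 ran from 6.51 to 13.6 CPM in WT (median 8.14), 5.78 to 8.73 in Trem2KO (median 7.06), 4.28 to 6.27 in Plcg2KO (median 4.68) and 6.07 to 13.6 in Plcg2HET (median 8.55). For Cd44 the highest Plcg2KO mouse was below the lowest WT mouse, so the groups did not overlap, whereas for Osmr 4 of 6 Plcg2KO mice were below all WT mice. The share of all genes whose groups do not overlap was not counted, here or below.

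Among the secreted proteins, only Serpina3n kept this order. It ran from 28 to 88.3 CPM in WT (median 57.8), 28.4 to 68.6 in Trem2KO (median 40.1), 13.7 to 55.5 in Plcg2KO (median 22.1) and 45.1 to 132 in Plcg2HET (median 68.1). Plcg2KO F2, at 55.5 CPM, stood apart from the other 5 Plcg2KO mice, which reached at most 27.5. Cp had a different order: 10.3 to 14.4 CPM in WT (median 12.6), 15.2 to 16.3 in Trem2KO (median 15.5), 13.3 to 17.8 in Plcg2KO (median 15) and 10.8 to 16.5 in Plcg2HET (median 12.7). The 6 Trem2KO mice were all above the 6 WT mice for Cp, and their SD was 2.94% of their mean.

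Lcn2 was low everywhere except in Plcg2KO. It ran from 0 to 0.375 CPM in WT (median 0.152), 0.0241 to 0.182 in Trem2KO (median 0.0905), 0.238 to 2.30 in Plcg2KO (median 1.08) and 0.159 to 0.494 in Plcg2HET (median 0.321). The library with no Lcn2 count was WT F1, where 0 counts allow up to 0.0691 CPM (3 counts, counting error only). All 6 Plcg2KO mice were above all 6 Trem2KO mice, and 4 of 6 were above every WT mouse. Aspg, the asparaginase, went the other way and ran from 3.53 to 7.82 CPM in WT (median 4.71), 2.29 to 5.77 in Trem2KO (median 3.43), 1.18 to 2.66 in Plcg2KO (median 1.88) and 2.86 to 11.2 in Plcg2HET (median 5.80). No Plcg2KO mouse reached the lowest WT or Plcg2HET mouse for Aspg.

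Loss of Plcg2 was compared with WT first. In Plcg2KO 6 of the 8 genes fell and 1 rose, while 7.63% of all tested genes were called lower and 5.44% higher (edgeR's quasi-likelihood test over 24 libraries with a term for sex, adjusted p under 0.05). The median log2 fold change of the 8 genes was -0.67, against -0.003 over all genes tested. Aspg fell most, with a log2 fold change of -1.24 ± 0.25 (SE; 2.36-fold lower, adjusted p = 0.00106). Gfap fell by 1.08 ± 0.23 on the log2 scale (2.11-fold, adjusted p = 0.00187, edgeR) and Serpina3n by 0.91 ± 0.22 (1.87-fold, adjusted p = 0.00541). The receptors Cd44 and Osmr and the filament gene Vim fell by less: Cd44 by 0.71 ± 0.11 (adjusted p = 7.09e-05, edgeR), Osmr by 0.64 ± 0.14 (adjusted p = 0.00231) and Vim by 0.56 ± 0.14 (adjusted p = 0.00873). Lcn2 rose, with a log2 fold change of 2.63 ± 0.54 (adjusted p = 0.00137). Cp did not pass the test (0.29 ± 0.10, adjusted p = 0.0576, edgeR). It did pass in DESeq2 (adjusted p = 0.0395) and with only the 2 genotypes in the fit. It also passed without WT M1 (adjusted p = 0.0358, edgeR) or Plcg2KO M1 (adjusted p = 0.0434). In this bulk tissue fewer cells of a type and less RNA per cell cannot be told apart.

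These 7 calls held without any 1 library, without the 3 libraries rich in Rn45s and with GC and length trends removed. With fewer mice, in males alone 2 of the 8 genes were called and in females alone 3, all in the direction given. Of all genes these fits called 369 of 16375 and 1011 of 16565. General astrocyte markers were not called lower: of 15, 0 were lower (2 at an unadjusted p under 0.05, Sox9 and Fgfr3) and 2 higher in Plcg2KO against WT (edgeR), the bicarbonate cotransporter Slc4a4 (0.65 ± 0.13, adjusted p = 0.00106, edgeR) and the glutamate transporter Slc1a3 (0.46 ± 0.09, adjusted p = 0.00125). Their summed level was 10052 to 10967 CPM in Plcg2KO and 8827 to 10658 in WT. Microglia markers were lower for 13 of 14 genes, and their sum ran from 686 to 1148 CPM in Plcg2KO and from 1258 to 2165 in WT. Endothelial markers were lower for 8 of 10. The part of these cell types in the fall of the reactive genes was not tested.

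**Figure D2:**
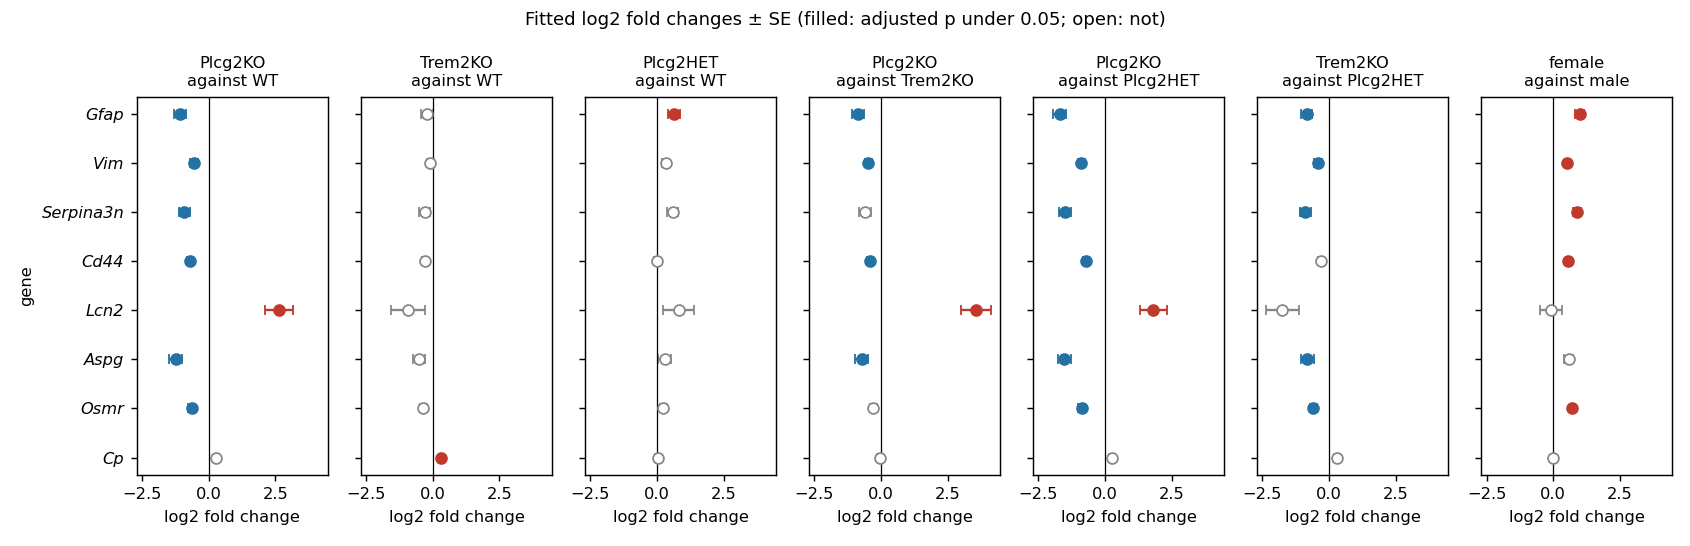
Fitted log2 fold change of each gene (horizontal axis; bars ± SE) in the 6 genotype comparisons and in females against males; filled points passed an adjusted p of 0.05 (blue lower, red higher) and open points did not. In the panel of Plcg2KO against WT, Lcn2 lies far to the right, at 2.63, while 6 genes lie to the left.

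For loss of Trem2, Cp alone passed the test against WT. None of the 8 fell and 1 rose in Trem2KO against WT, with 8.16% of all genes called lower and 7.56% higher, so neither count stood clear of the background. At an unadjusted p under 0.05, 3 of the 8 (Cd44, Osmr and Aspg) were lower (edgeR). Cp rose by 0.32 ± 0.10 on the log2 scale (1.25-fold, adjusted p = 0.0303, edgeR), and the call was lost without WT M2, M3, F1 or F3 or Trem2KO M3, F2 or F3 (adjusted p up to 0.091), without the 3 libraries rich in Rn45s (adjusted p = 0.062) and with GC and length trends removed (adjusted p = 0.0911). The fit with the label codes as a replicate block did not call it either (adjusted p = 0.0501). Fold changes of the other genes had the negative sign in 7 of 7 cases, with a median over all 8 of -0.30. Gfap differed by -0.22 (95% interval -0.67 to 0.24, adjusted p = 0.555, edgeR) and Vim by -0.09 (-0.37 to 0.20), which leaves room for a fall of Gfap by up to 0.67. Osmr, at -0.35 (adjusted p = 0.0787), Cd44, at -0.29 (adjusted p = 0.0687), and Aspg, at -0.52 (adjusted p = 0.136), were closest to the threshold. With only the 2 genotypes in the fit, Cp and 3 lower genes passed, Osmr (-0.34, adjusted p = 0.00987, edgeR), Aspg (-0.51, adjusted p = 0.0102) and Cd44 (-0.28, adjusted p = 0.0428). That fit tested 7 of the 8 genes and called 4780 of all 15974 genes tested. Aspg also passed with GC and length trends removed (-0.67, adjusted p = 0.0135), and Cd44 in DESeq2 (adjusted p = 0.0469). Microglia markers were lower in Trem2KO as well, for 12 of 14 genes, with a summed level of 842 to 1231 CPM.

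The 2 knockouts were then compared directly. In Plcg2KO against Trem2KO, 4 of the 8 genes were lower and 1 higher, against 8.82% and 7.63% of all genes. Gfap was lower by -0.86 ± 0.23 (1.81-fold, adjusted p = 0.0162, edgeR), Cd44 by -0.42 ± 0.11 (adjusted p = 0.0174), Vim by -0.47 ± 0.14 (adjusted p = 0.0284) and Aspg by -0.72 ± 0.25 (adjusted p = 0.046). Lcn2 was higher by 3.57 ± 0.58 (adjusted p = 0.00107, edgeR). Serpina3n, at -0.60, missed the threshold (adjusted p = 0.0541), Osmr was at -0.29 (adjusted p = 0.139) and Cp at -0.03 (adjusted p = 0.85). With GC and length trends removed the calls of Gfap (-0.65, adjusted p = 0.0674) and Aspg (-0.42, adjusted p = 0.188) were lost; GC content was 55.5% for Gfap and 58.1% for Aspg, and this comparison had the steepest GC trend. Leaving out 1 library took the Aspg call in 9 of 12 cases and the Vim call in 4 of 12 (Trem2KO M1 and F3, Plcg2KO F1 and F2). Without Trem2KO M1, Trem2KO F3 or Plcg2KO F1, 3 of the 8 genes were called in all.

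Mice labelled heterozygous had the highest levels of 6 of the 8 genes, but with wide spread. Against WT, 0 of the 8 genes were lower (0 also at an unadjusted p under 0.05, edgeR) and 1 higher, with 7.13% of all genes lower and 10.9% higher. The median log2 fold change of the 8 genes was 0.31. The call was Gfap, at 0.63 ± 0.22 (1.55-fold, adjusted p = 0.0484, edgeR), and it was lost under 10 of 12 other settings and without 9 of the 12 WT and Plcg2HET libraries in turn. Serpina3n was at 0.59 (adjusted p = 0.0531) and Vim at 0.33 (adjusted p = 0.0982). With GC and length trends removed Vim passed (0.46, adjusted p = 0.0229, edgeR). Within Plcg2HET the mice differed by more than 3-fold: Gfap was 3780 CPM in F1, 3055 in F3, 1915 in M2, 1709 in M1, 1553 in F2 and 1034 in M3. The 4 libraries with the most Gfap had deviations that rose with GC content (Spearman coefficient across genes 0.277 to 0.552), and M3 and F2 had deviations that fell with it (-0.448 and -0.368). The part of this trend in their Gfap level was not tested, but with it removed the log2 fold change of Gfap against WT was 0.43 (adjusted p = 0.161, edgeR). F3 and F1 were also rich in Rn45s.

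For the 6 genes lower in Plcg2KO, the difference was largest against Plcg2HET among the 6 genotype comparisons. Here 6 of the 8 genes were lower and 1 higher, with 20.2% of all genes lower and 15.0% higher. Gfap was lower by -1.71 ± 0.23 (3.26-fold, adjusted p = 5.54e-06, edgeR), Aspg by -1.53 ± 0.25 (2.89-fold), Serpina3n by -1.50 ± 0.22 (2.82-fold), Vim by -0.89 ± 0.14, Osmr by -0.88 ± 0.14 and Cd44 by -0.73 ± 0.11, each with an adjusted p of at most 5.73e-05. These 6 calls held under all 12 other settings, each sex alone included. Lcn2 was higher by 1.81 ± 0.52 (adjusted p = 0.00855, edgeR), and Cp, at 0.25, was not called (adjusted p = 0.0606). In Trem2KO against Plcg2HET 5 genes were lower and 0 higher, against 9.28% and 6.27% of all genes: Serpina3n (-0.90), Gfap (-0.85), Aspg (-0.81), Osmr (-0.59) and Vim (-0.42). Cp, at 0.28, was the only gene of the 8 higher at an unadjusted p under 0.05 (edgeR). Without the 3 libraries rich in Rn45s, of which 2 are Plcg2HET, 1 of the 8 genes was called, against 1626 of all 16493 tested. With GC and length trends removed, Cd44 (-0.36, adjusted p = 0.0275, edgeR) and Lcn2 (-1.72, adjusted p = 0.0316) passed as well. Comparisons against the same group share its 6 mice and are not independent of each other.

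Over the 4 genotypes together, all 8 genes differed, Cp with the largest adjusted p (0.0167, edgeR), but 45.7% of all genes did so too. With GC and length trends removed, 7 of the 8 were called.

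Levels also differed between the sexes. In females against males 5 of the 8 genes were higher and 0 lower, while 2.27% of all genes were higher and 0.0981% lower. Gfap was higher by 0.99 ± 0.16 on the log2 scale (1.99-fold, adjusted p = 0.000456, edgeR), Serpina3n by 0.90 ± 0.15 (adjusted p = 0.000813), Osmr by 0.72 ± 0.10 (adjusted p = 7.69e-05), Cd44 by 0.57 ± 0.08 (adjusted p = 0.000108) and Vim by 0.53 ± 0.10 (adjusted p = 0.00239). In WT, the 3 females had 1944 to 2396 CPM of Gfap and the 3 males 733 to 983, with no overlap. In Trem2KO the females had 1451 to 1783 and the males 756 to 878. In Plcg2KO the ranges overlapped, with 428 and 1113 CPM in the 2 females and 301 to 641 in the 4 males. In Plcg2HET they overlapped too, with 1553 to 3780 in females and 1034 to 1915 in males. Cd44 separated the sexes in every genotype: males had 6.51 to 7.43 CPM and females 8.86 to 13.6 in WT, 5.78 to 6.18 and 7.94 to 8.73 in Trem2KO, 4.28 to 4.81 and 5.76 to 6.27 in Plcg2KO, and 6.07 to 7.57 and 9.53 to 13.6 in Plcg2HET. For Osmr the sexes did not overlap in WT (males at most 9.5, females at least 11.8), Trem2KO (6.66 and 10.2) or Plcg2KO (6.39 and 7.25), and they overlapped in Plcg2HET (11.6 and 11.3). How many of all genes separate the sexes in this way was not counted. Aspg was at 0.57 and was not called (adjusted p = 0.087, edgeR; 0.54 and adjusted p = 0.0217 with GC and length trends removed), Lcn2 was at -0.07 (adjusted p = 0.964) and Cp at 0.01 (adjusted p = 0.983). Of the microglia markers, 11 of 14 were higher in females; their part in the sex difference was not tested. The sex difference itself was tested for a change with genotype: in each of the 3 genotypes against WT, 0 of 8 genes and 0 of 16316 were called, with 0 of the 8 at an unadjusted p under 0.05. For Gfap the sex difference was 1.37 ± 0.32 in WT and 0.66 ± 0.33 in Plcg2KO, a difference of -0.71 ± 0.47 (adjusted p = 0.679, edgeR).

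Lcn2 rested on few counts, so its counts are given for each Plcg2KO mouse. M2 had 142 counts, M4 had 111, F2 had 84, M1 had 47, M3 had 20 and F1 had 18, in libraries of 49422827 to 81487044 counts. WT mice had 0 to 19 counts, Trem2KO mice 2 to 12 and Plcg2HET mice 10 to 28, so M3 and F1 were within or close to the range of the other groups. On log2(CPM + 0.5), Plcg2KO was higher than WT by 1.13 (two-sided exact permutation test of 6 against 6 mice, p = 0.0108, adjusted over 6 pairs 0.0216). Plcg2KO was higher than Trem2KO by 1.31 (exact permutation p = 0.00216, the smallest this design can give, adjusted p = 0.013). Against Plcg2HET the difference was 0.84 (exact permutation p = 0.039, adjusted p = 0.0584), so this test did not call what the fit over all genes called. It did so without Plcg2KO M3 (1.04, adjusted exact permutation p = 0.013) or Plcg2KO F1 (0.994, adjusted p = 0.0227). Plcg2HET was higher than Trem2KO by 0.46 (adjusted exact permutation p = 0.013), a difference that the fit over all genes did not call (adjusted p = 0.0508, edgeR). Without WT F1, the library at 0, Plcg2KO was higher than WT by 1.05, and the test no longer passed (adjusted exact permutation p = 0.0519).

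Neutrophils carry Lcn2, and so do other inflamed cells, so markers of other cell types are given beside it. Of 8 neutrophil markers in the table, S100a9 alone passed the count filter, and it too was higher in Plcg2KO than in WT (2.47 ± 0.70, adjusted p = 0.0192, edgeR), with 4 to 46 counts per Plcg2KO library and 0 to 7 per WT library. The 8 markers summed to 0.143 to 2.19 CPM in Plcg2KO, 0.0444 to 0.253 in WT, 0.0735 to 0.676 in Trem2KO and 0.0176 to 0.499 in Plcg2HET. Per Plcg2KO mouse the neutrophil sum was 2.19 CPM in F2, 1.12 in M1, 0.884 in M4, 0.842 in M2, 0.393 in M3 and 0.143 in F1. M3 and F1 were thus lowest for both it and Lcn2. On log2 values with genotype and sex removed, r between Lcn2 and this sum within Plcg2KO was 0.62. Genes that fell had like values there: 0.737 for Serpina3n, 0.617 for Gfap, 0.545 for Aspg, 0.534 for Vim and 0.488 for Osmr. Cd44 was at 0.317 and Cp at -0.0145. Over all 24 libraries, with genotype and sex removed, Lcn2 and the neutrophil sum had r = 0.34 (permutation p = 0.104) and rho = 0.05 (p = 0.798); r was 0.09 without Plcg2KO F2 and F1. In Plcg2KO 2 of 8 tested choroid plexus markers were higher; their sum was 9.71 to 16.6 CPM there and 7.02 to 10.8 in WT, and Ttr averaged 2.65 and 0.372 CPM. The part of neutrophils or choroid plexus in the Lcn2 level was not tested.

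Within groups, the 8 genes rose and fell together to different degrees. After removal of genotype means and of a sex difference common to all genotypes, 28 pairs were correlated over 24 libraries. Of these, 17 passed an adjusted permutation p of 0.05, 16 of them positive. The share of pairs of other genes that would pass was not computed, so this count has no background beside it. The closest pair was Gfap and Serpina3n (r = 0.96, rho = 0.94, both permutation p = 1e-05, the smallest possible, adjusted p = 7e-05). Within each genotype r was 0.89 in WT, 0.80 in Trem2KO, 0.98 in Plcg2KO and 0.997 in Plcg2HET. In Plcg2HET, Gfap and Serpina3n also followed the library's GC trend (r = 0.975 and 0.959), whose part was not tested. In Plcg2KO their r with that trend was -0.07 and -0.243. Over all genotypes r between the 2 genes was 0.93 without the 2 libraries farthest out in Gfap (Plcg2KO F1 and Plcg2HET F2). Vim and Aspg were the next closest (r = 0.91, rho = 0.88, adjusted permutation p = 7e-05 for both, 0.86 without those 2 libraries), followed by Serpina3n and Osmr (r = 0.84, rho = 0.86, adjusted p = 7e-05; 0.85 without them). Cd44, though lower in Plcg2KO like the others, did not follow Gfap among mice of a group (r = -0.05, permutation p = 0.824; rho = -0.23, p = 0.274). Its only correlation to pass was with Cp, and negative (r = -0.56, adjusted permutation p = 0.0095; rho = -0.57, adjusted p = 0.00905; -0.59 without WT F3 and Plcg2HET F3). Cp rose with Osmr (r = 0.57, adjusted permutation p = 0.00763; rho = 0.51, adjusted p = 0.0214; r = 0.42 without Plcg2KO M1 and Plcg2HET F2).

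Lcn2 behaved differently between and within genotypes. Between genotypes it was highest where Gfap was lowest, in Plcg2KO. With genotype means and the common sex difference removed, Lcn2 rose with Gfap (r = 0.66, rho = 0.68, adjusted permutation p = 0.00146 and 0.00119, and r = 0.59 without Plcg2KO F1 and Plcg2HET F2). It also rose with Serpina3n (r = 0.68, rho = 0.73, adjusted permutation p = 0.000805 and 0.00056, and r = 0.60 without those libraries). By genotype, r with Gfap was 0.81 in Plcg2KO, 0.76 in Plcg2HET, 0.37 in WT and -0.47 in Trem2KO, so the relation had the opposite sign in Trem2KO, where counts were at most 12. With Serpina3n, r was likewise negative in Trem2KO (-0.81) and positive in Plcg2KO (0.79), Plcg2HET (0.79) and WT (0.62). Within Plcg2KO, M2, M4 and F2 had both more Lcn2 (1.31 to 2.30 CPM) and more Gfap (625 to 1113) than M1, M3 and F1 (0.238 to 0.838 and 301 to 428).

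**Figure D3:**
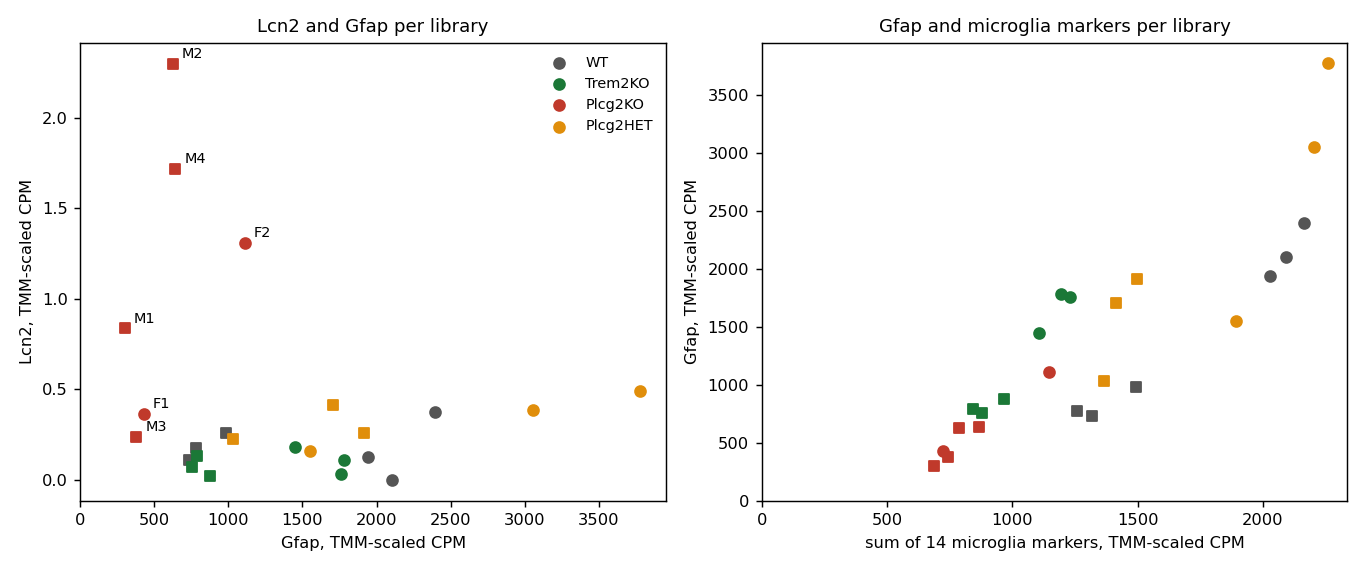
Left, Lcn2 against Gfap per library, with the Plcg2KO mice named; right, Gfap against the sum of 14 microglia markers (all axes TMM-scaled CPM; squares males, circles females; colours genotypes). Plcg2KO mice combine Gfap of at most 1113 CPM with Lcn2 of up to 2.30, and Gfap climbs with the microglia markers within each colour.

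The 8 genes were also set against 4 features of each library, among them the summed microglia markers. These 32 relations, of 8 genes with 4 features, were chosen after the data were seen. Genotype means and a sex difference common to all genotypes were removed first. A sex difference particular to a genotype stays in the values, and its part in r within that genotype was not tested. Serpina3n had r = 0.86 and rho = 0.83 with the microglia sum (permutation p = 1e-05 for each, adjusted 0.00016), and 0.79 without Plcg2KO F1 and M4, the 2 libraries farthest out. Gfap had r = 0.84 and rho = 0.79 (adjusted permutation p = 0.00016 for both), and 0.76 without those libraries; within genotypes r was 0.95 in WT, 0.58 in Trem2KO, 0.94 in Plcg2KO and 0.74 in Plcg2HET. Aspg (r = 0.67, rho = 0.59), Vim (0.65 and 0.58) and Osmr (0.60 and 0.66) also passed, with adjusted permutation p between 0.00251 and 0.0185. Within Trem2KO, however, r with the microglia sum was -0.10 for Aspg, -0.19 for Vim and -0.94 for Lcn2. Lcn2 passed by r alone (r = 0.53, adjusted permutation p = 0.0395; rho = 0.47, adjusted p = 0.0825; r = 0.30 without Plcg2KO F1 and M4). Cd44 (r = 0.26, permutation p = 0.223) and Cp (r = -0.02, p = 0.918) did not. Astrocyte markers as a sum went against Aspg (r = -0.66, rho = -0.70, adjusted permutation p = 0.00251 and 0.00299). With the library's GC trend, Gfap (r = 0.51, adjusted permutation p = 0.0395; rho = 0.40, adjusted p = 0.137; r = 0.28 without Plcg2HET F2 and M3) and Vim (r = 0.50, adjusted p = 0.0395; rho = 0.42, adjusted p = 0.117; r = 0.24 without them) passed by r alone. Aspg followed the GC trend by both measures (r = 0.68, rho = 0.62, adjusted permutation p = 0.00251 and 0.0107; 0.48 without Plcg2HET F2 and M3). Within Plcg2HET, r with the GC trend was 0.975 for Gfap, 0.959 for Serpina3n, 0.909 for Aspg and 0.855 for Osmr. Within Plcg2KO it was -0.07, -0.243, -0.0724 and -0.352. The part of this trend in the correlations among the 8 genes was not tested. All the marker sums share the library and its scaling with the genes they are set against.

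**Figure D4:**
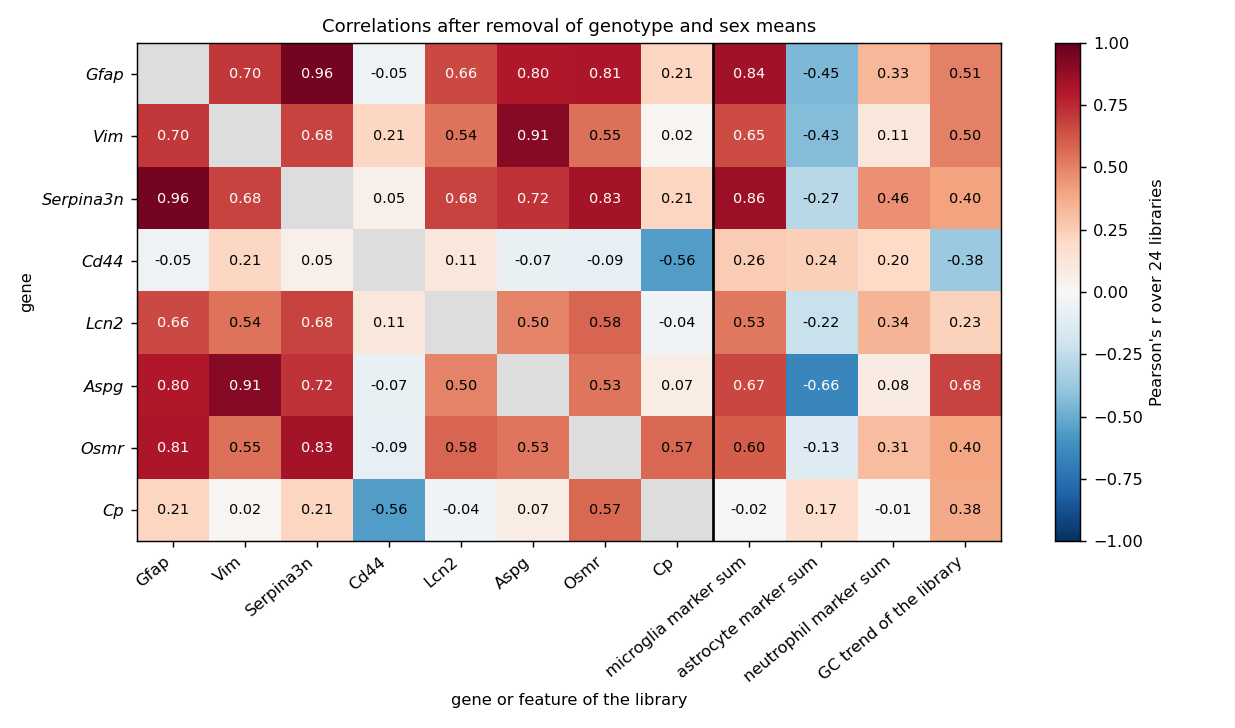
Pearson's r over 24 libraries after removal of genotype and sex means, for each pair of the 8 genes (left of the line) and for each gene with 4 features of the library (right; the GC trend is the Spearman coefficient of a library's deviations with gene GC content). Gfap, Serpina3n, Osmr, Aspg, Vim and Lcn2 are positively correlated with each other, up to 0.96, Cp is so with Osmr (0.57), and grey marks a gene with itself.

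Among 12962 other genes (average log2 CPM at or above 1), those most like each of the 8 over the 24 libraries, again without genotype and sex, were these. Gfap was closest to C4b, a complement component with a near-identical copy that can share its reads (r = 0.95), and Slamf9, a cell-surface receptor (0.94). Serpina3n was closest to C4b (0.92) and Cd22, a sialic acid-binding receptor (0.89). Osmr was closest to Slc15a3 (0.81), a transporter of peptides and histidine, and Cst7, a cystatin (0.79). Aspg was closest to Acads, a mitochondrial dehydrogenase (0.94), and Naglu, a lysosomal enzyme (0.93), and Vim to Id3 (0.91) and Mfsd3 (0.90). Cp was closest to Tnfsf10 (0.84) and Mfsd9 (0.84). Lcn2 and Cd44 had looser neighbours, Thbs1 (thrombospondin-1, 0.72) and Col8a2 (0.69) for Lcn2, and Ssh2 (0.72) and Rhbdd1 (0.72) for Cd44. These values describe likeness only.

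The pathway around Osmr was read from a list of 19 genes of gp130 and STAT3 signalling, from ligands to feedback inhibitors, of which 17 were tested. In Plcg2KO against WT 4 were lower and 0 higher, with a median of -0.03. Of the ligand genes, Osm, which encodes the ligand of OSMR, fell by 1.57 ± 0.44 (adjusted p = 0.017, edgeR; 0.382 CPM in WT, 0.1 in Plcg2KO), and the cytokine gene Clcf1 fell by 1.198 ± 0.333 (adjusted p = 0.0165; 0.746 and 0.333 CPM). Socs3, the feedback inhibitor that STAT3 induces, fell by 0.56 ± 0.17 (adjusted p = 0.0311, edgeR), and the kinase gene Tyk2 by 0.53 ± 0.15 (adjusted p = 0.0183). The other tested ligand genes Lif (-0.22), Ctf1 (-0.03) and Il11 (-0.21) were not called. The shared receptor and the transcription factor were not called: Il6st, which encodes gp130, was at 0.10 (adjusted p = 0.345) and Stat3 at -0.08 (adjusted p = 0.569). In Trem2KO against WT 1 of 17 was lower and 1 higher, Il11 (-0.88, adjusted p = 0.0256, edgeR) and Pias3, an inhibitor of STAT3 (0.34, adjusted p = 0.027). In Plcg2HET against WT 0 were lower and 1 higher, the receptor gene Cntfr (0.74, adjusted p = 0.00321).

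Other genes linked to reactive astrocytes moved in part. In a list of 5 further genes of the general reactive state, 2 were lower in Plcg2KO against WT, the sphingosine phosphate receptor gene S1pr3 (-0.47 ± 0.11, adjusted p = 0.0028, edgeR) and the chemokine gene Cxcl10 (-0.94 ± 0.30, adjusted p = 0.0368). Steap4, Timp1 and Hspb1 were not called there. In Plcg2HET, Hspb1, a small heat-shock protein gene, was higher than in WT (1.62 ± 0.31, adjusted p = 0.00115, edgeR), at 8.44 and 2.73 CPM. Of 12 tested genes of the inflammatory A1 type, 5 were lower and 2 higher in both Plcg2KO and Trem2KO against WT. They included the MHC class I genes H2-D1 (-0.79) and H2-T23 (-0.82) and the immunoproteasome gene Psmb8 (-1.17) in Plcg2KO; these are expressed by microglia as well, and MHC genes have close copies that can share reads. Of 11 tested genes of the A2 type, 3 were lower and 1 higher in Plcg2KO, Cd14, a microglial co-receptor, by the most (-1.92 ± 0.21, adjusted p = 2.42e-07, edgeR). Of 9 genes of disease-associated astrocytes, 2 were lower in Plcg2KO, the tetraspanin gene Cd9 (-1.17) and the protease gene Ctsb (-0.35), both also found in microglia.

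For Cp and Lcn2 the iron genes were read, and for Cd44 those of hyaluronan. Of 7 tested iron handling genes, 1 was lower and 1 higher in Plcg2KO against WT. Heph, which encodes the ferroxidase related to ceruloplasmin, rose by 1.02 ± 0.17 (adjusted p = 2e-04, edgeR), and Slc40a1, the iron exporter ferroportin, fell by 0.43 ± 0.11 (adjusted p = 0.00784). In Trem2KO, where Cp was called, 0 of 7 were called in either direction (edgeR; 2 at an unadjusted p under 0.05, both higher). Of 8 hyaluronan genes, which make, cut or bind the ligand of CD44, Spp1 (osteopontin, another ligand of CD44) alone was called in Plcg2KO against WT (-0.82 ± 0.22, adjusted p = 0.0108, edgeR). In Trem2KO Spp1 was lower too (-1.10 ± 0.21, adjusted p = 0.000809), and the hyaluronan-degrading gene Cemip was higher (0.36 ± 0.09, adjusted p = 0.00453).

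Markers of the other cell types of the cortex were read as lists beside the 8 genes. In Plcg2KO against WT, 8 of 10 meningeal fibroblast markers and 4 of 8 markers of border-associated macrophages were higher, 1 of 9 oligodendrocyte markers was lower and 1 higher, and 1 of 6 oligodendrocyte precursor markers and 1 of 10 neuron markers were higher. None of 10 pericyte and smooth muscle, 7 ependymal or 5 tested T cell markers was called there (edgeR; 4, 0 and 0 at an unadjusted p under 0.05). In Trem2KO against WT 7 fibroblast, 5 border-associated macrophage and 1 choroid plexus marker were higher, and in Plcg2HET against WT 6, 5 and 3. Astrocyte markers in Plcg2HET were higher for 2 of 15, Atp1b2 (0.82, adjusted p = 0.00134) and Aldh1l1 (0.63, adjusted p = 0.00336, edgeR). The part of these cell types in the levels of the 8 genes was not tested.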

How the data were processed

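Cortex messenger RNA of 24 mice was sequenced, 1 library per mouse. Per the labels, libraries were made with a KAPA mRNA Hyperprep kit. Per the submitters' processing notes, STAR 2.7.10a, featureCounts 2.0.3 and the mm10 build were used; no source used here gives the strand setting. The main values were the authors' raw counts per gene, deposited without normalization. The authors also deposited expected counts, used rounded as an alternative, and TPM, used to order genes by level; the deposited FPKM were not used. No source used here names the tool behind these 3.

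Counts were filtered with filterByExpr (minimum count 10), scaled by TMM and fitted with edgeR 4.0.16 in R 4.3.3 (quasi-likelihood test, robust, genotype means plus sex, all 24 libraries). P-values were adjusted by Benjamini-Hochberg over 16316 genes, and a gene was called at an adjusted p under 0.05. Lcn2 was also tested alone by exact permutation on log2(CPM + 0.5), and correlations by 100000 permutations. Correlations used values from which genotype means and a sex difference common to all genotypes were removed. Alternatives were other scalings (RLE, total counts), filters and pseudocounts, DESeq2 1.42.0, expected counts, no sex term, each sex alone, only the 2 genotypes compared, GC and length offsets (15693 genes with GC content, 96.2%), no Rn45s-rich library, a replicate block and each library left out. Genes outside the 8 were named as the 2 with the highest correlation to a member, as up to 3 called genes per list with the smallest p, or to show a marker level; other names were chosen after their values were seen. The members and lists were chosen with earlier results of these data known. On simulated counts for Plcg2KO against WT (16224 genes), the fit called 46 of 67 genes given a 1.5-fold change. It also called 65 of 67 given a 2-fold change and 7 unchanged genes. The changed genes were drawn above a mean CPM that leaves out Lcn2. No sex difference or GC trend was put into these counts, so the shares need not hold for the real data. With totals of 36272966 to 82990818 counts per library, depth limits Lcn2 alone among the 8. Mice are separate animals by their labels, so p-values reflect the spread between mice. Library pairs correlated between 0.98 and 0.994, and no 2 held identical values.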

Additional observations from a re-analysis of the deposited data

Results flagged for a closer look

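Serpina3n in Plcg2KO F2, at 55.5 CPM, lay far from the other 5 Plcg2KO mice, of which the highest had 27.5. Its gap to them was 0.67 of the whole range of the group. Of 32 groups examined in this way (8 genes in 4 genotypes) it was the only one past the limit. Chance alone passes about 1 in 20 groups. Each group mixed the sexes, F2 is 1 of the 2 Plcg2KO females, and Serpina3n was higher in females. The other Plcg2KO female, F1, had 18.2 CPM. The same mouse had the highest Gfap of its group, 1113 CPM. Without it Serpina3n in Plcg2KO against WT remained called.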

How the results depend on the processing

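In Plcg2KO against WT 7 of the 8 genes were called. The count was 6 to 8 under every alternative except males alone (2) and females alone (3). Of all genes, males alone called 369 of 16375 and females alone 1011 of 16565. Without any 1 of the 24 libraries the count was 7 to 8. Plcg2KO against Plcg2HET gave 7 to 8 without any 1 library, females against males 5 to 6, any difference among genotypes 8 to 8, and the change of the sex difference with genotype 0 to 0. In Plcg2HET against WT, with 1 gene called, RLE scaling and DESeq2 called 2 each. The count was 0 without a count filter, under a minimum mean CPM of 1, without the sex term and with expected counts. Males alone, females alone, only the 2 genotypes compared and the data without the Rn45s-rich libraries called 0 too. Of all genes these last 4 fits called, in that order, 5 of 16375, 419 of 16565, 736 of 15739 and 807 of 16493. RLE scaling called 2940 and DESeq2 3518 of 16316. In Trem2KO against WT, with 1 called, DESeq2 called 2 and only the 2 genotypes compared 4. Males alone, females alone and the data without the Rn45s-rich libraries called 0 each. Of all genes these fits called, in that order, 3100 of 16316, 4780 of 15974, 72 of 16375, 963 of 16565 and 1831 of 16493. In Plcg2KO against Trem2KO, with 5 called, males alone and females alone called 0 each and GC and length offsets 3. Of all genes, males alone called 11 of 16375, females alone 6 of 16565 and the offsets 1162 of 16316. In Trem2KO against Plcg2HET, with 5 called, no sex term gave 2, males alone and females alone 0 each. The data without the Rn45s-rich libraries gave 1. Of all genes these fits called, in that order, 2365 of 16316, 341 of 16375, 530 of 16565 and 1626 of 16493. Fewer samples enter the fits of 1 sex; for the other changes the cause was not tested. Leaving out 1 library gave 0 to 2 in Trem2KO against WT, 0 to 3 in Plcg2HET against WT, 3 to 6 in Plcg2KO against Trem2KO and 4 to 7 in Trem2KO against Plcg2HET.

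Signs turned only for differences that were not called. Cd44 in Plcg2HET against WT was -0.06 in males alone, -0.057 without the Rn45s-rich libraries and -0.054 to 0.115 without 1 library each. Aspg in Plcg2HET against WT was -0.05 without the Rn45s-rich libraries, and Vim in Trem2KO against WT 0.034 with GC and length offsets. Cp was 0.154 in Plcg2KO against Trem2KO in females alone (-0.086 to 0.005 without 1 library each), -0.144 in Plcg2KO against Plcg2HET with GC and length offsets, -0.051 to 0.093 in Plcg2HET against WT and -0.028 to 0.047 in females against males without 1 library each. Lcn2 in females against males was 0.321 with expected counts and -0.244 to 0.151 without 1 library each. A minimum mean CPM of 1 leaves Lcn2 untested. In the exact permutation test of Lcn2, Plcg2KO against Plcg2HET was 0.904 with total counts in place of TMM and then passed. Without 1 library each the Lcn2 difference was 0.946 to 1.33 for Plcg2KO against WT, -0.255 to -0.094 for Trem2KO against WT, 0.208 to 0.37 for Plcg2HET against WT, 1.119 to 1.503 for Plcg2KO against Trem2KO, 0.655 to 1.04 for Plcg2KO against Plcg2HET and -0.524 to -0.406 for Trem2KO against Plcg2HET. The call changed without WT F1 for Plcg2KO against WT (lost), without WT F3 for Plcg2HET against WT (gained, adjusted exact permutation p = 0.0468) and without Plcg2KO M3 or F1 for Plcg2KO against Plcg2HET (gained). Of all values of single genes under alternatives, 1219 kept their direction and side of the threshold, 99 lost a call, 45 gained one and 29 changed sign. The numbers of genes called in the reactive astrocyte, signalling, filament, iron, hyaluronan, astrocyte and microglia lists depended more on the setting. Of 1440 such counts under alternatives, 1071 stayed equal or within 1.5-fold and 369 moved by more, changes to or from none included.

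The codes in the labels (M1, F2 and so on) recur across genotypes, but mice with the same code did not deviate together: over 33 such pairs the correlation of their deviations was -0.313 to 0.147, and 0 of 24 libraries correlated best with their own code. With the code as a replicate block, 0 of the 8 genes were called in Trem2KO against WT and 0 in Plcg2HET against WT. In Plcg2KO 7 were called against WT, 4 against Trem2KO and 7 against Plcg2HET, and in Trem2KO 6 against Plcg2HET. Of 16316 genes in all, the block called, in that order, 2198, 2413, 1582, 1073, 4678 and 2176. At the depth of these libraries counting error bears mainly on Lcn2, with at most 142 counts.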
